A study of Mus musculus with 22 samples.

Results

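The GIMAP genes encode small GTP-binding proteins of lymphocytes and endothelium, and 8 of them (Gimap1, Gimap3, Gimap4, Gimap5, Gimap6, Gimap7, Gimap8 and Gimap9) were followed across diet and time of day in RNA-seq of mouse liver cells. They were taken by symbol from a count table, which lists 55367 genes, and all 8 were among the 22409 genes that passed the filter on low counts. A ninth row of that table whose symbol starts with Gimap, Gimap1os, is an antisense transcript of Gimap1 and is described apart. GIMAP stands for GTPase of the immunity-associated protein. These proteins share a GTP-binding domain called AIG1, several of them are anchored in the membranes of organelles, and they are best known for setting the survival of resting T and B cells. Mice that lack Gimap5 lose lymphocytes and develop liver disease, and Gimap5 is also needed in the sinusoidal endothelium of the liver.

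The series holds 22 libraries from mice of 20 weeks. Chow-fed mice gave the 10 control libraries, 3 at zeitgeber time (ZT) 0, 2 at ZT6, 2 at ZT12 and 3 at ZT18. Mice fed CDA-HFD, a high-fat diet with defined amino acids and no choline that causes steatohepatitis with fibrosis, gave 12 libraries, 3 at each of the 4 times. ZT0 is lights on and ZT12 is lights off. The growth protocol starts the diet at 8 weeks of age and gives it for 12 weeks, while another label field of the diet mice gives 6 months, so its length is not settled. Strain, genotype and sex were not given in the sources used here, and separate animals are not stated for the libraries of a group, so p-values here cover the spread among libraries, some of which could be technical.

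The labels name the cells HSC, short for hepatic stellate cell, but the libraries carried much more RNA of endothelial markers. The summed level of 20 endothelial markers (Cdh5, Pecam1, Kdr, Stab2 and others) was 19820 to 38380 CPM (counts scaled to the size of the library, with TMM factors) in the control libraries and 1283 to 3006 CPM in the diet libraries. For 16 stellate cell markers it was 174.4 to 907.8 and 145.1 to 499.3 CPM, and the stellate markers Hand2 and Lhx2 had no count in at least 1 library of either diet. For 20 T cell markers, among them the CD3 chains, it was 755.2 to 3179 and 4038 to 8060 CPM. No endothelial or T cell marker was at 0 in any library. Total counts were 19754805 to 41665623 per library. On the first principal component of log2 CPM, with 40.2% of the variance, control ZT0 replicate 2 lay at -46.6, the other control libraries at -126 to -95.8 and the diet libraries at 74.2 to 96.3. Control ZT18 replicate 1 stood apart on the second component (110.1, against 46.0 or less in all other libraries). Results below that rest on either library are given with and without it. The exception is the search for genes most like each member, where the 2 libraries were only left out together.

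All 8 genes lie side by side within 124 kb of chromosome 6 (48647234 to 48770851 on GRCm38, GENCODE M21 annotation), in the order Gimap8, Gimap9, Gimap4, Gimap6, Gimap7, Gimap1, Gimap5, Gimap3. Of these, 6 are on the plus strand and 2, Gimap6 and Gimap3, on the minus strand. The promoters of the 2 members that were most raised under diet (Gimap7 and Gimap3) and of the 2 that were most lowered (Gimap4 and Gimap6) are shown to let the reader compare the starts of genes that moved in opposite directions. They come from RefSeq (GRCm38.p6), run from 250 bases before the start of transcription to 50 after it, and are written 5′ to 3′ on the strand of the gene. Capitals mark GGAAG or its reverse complement CTTCC, the core recognised by ETS factors, which act in both endothelial and lymphoid cells.
Gimap3 promoter, chr6:48770802-48771101, minus strand: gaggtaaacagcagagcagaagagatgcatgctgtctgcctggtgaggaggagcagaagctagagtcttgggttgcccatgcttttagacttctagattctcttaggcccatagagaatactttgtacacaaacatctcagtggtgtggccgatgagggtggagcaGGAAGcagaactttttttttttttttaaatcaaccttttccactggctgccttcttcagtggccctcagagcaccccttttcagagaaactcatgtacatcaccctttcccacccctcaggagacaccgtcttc
Gimap7 promoter, chr6:48718371-48718670, plus strand: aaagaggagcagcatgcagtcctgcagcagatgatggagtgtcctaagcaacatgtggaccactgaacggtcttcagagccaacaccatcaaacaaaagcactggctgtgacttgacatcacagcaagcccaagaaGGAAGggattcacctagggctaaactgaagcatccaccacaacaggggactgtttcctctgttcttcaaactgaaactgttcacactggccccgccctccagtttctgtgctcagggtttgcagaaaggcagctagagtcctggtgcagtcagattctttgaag
Gimap4 promoter, chr6:48684328-48684627, plus strand: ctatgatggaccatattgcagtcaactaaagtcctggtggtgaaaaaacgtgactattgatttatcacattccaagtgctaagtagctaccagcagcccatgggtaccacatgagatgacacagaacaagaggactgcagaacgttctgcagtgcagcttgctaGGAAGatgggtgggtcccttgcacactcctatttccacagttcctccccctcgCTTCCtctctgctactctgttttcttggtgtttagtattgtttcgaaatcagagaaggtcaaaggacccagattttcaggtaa
Gimap6 promoter, chr6:48708195-48708494, minus strand: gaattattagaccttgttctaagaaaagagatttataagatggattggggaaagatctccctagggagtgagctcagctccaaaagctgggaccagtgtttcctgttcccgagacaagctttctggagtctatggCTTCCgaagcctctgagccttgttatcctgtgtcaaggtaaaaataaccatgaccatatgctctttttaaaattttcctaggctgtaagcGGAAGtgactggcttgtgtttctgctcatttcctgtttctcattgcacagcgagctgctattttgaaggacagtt

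All 8 members matched the RefSeq table, with 9 windows in all because Gimap8 has 2 overlapping ones. GGAAG was found on either strand in 9 of 9 windows, against 71.4% of 32851 promoter windows of the same length. The longer form CGGAAG, which overlaps GGAAG, was found in 4 windows of 3 members (Gimap8, Gimap6 and Gimap1), against 16.9% of all windows. The RUNX core TGTGGT was found in 3 (Gimap4, Gimap7 and Gimap1), against 16.8% of all. The E-box CACGTG of the clock factors CLOCK and BMAL1 was in 0 of 9 (7.15% of all), the GATA core AGATAA in 0 of 9 (11.2%) and the ROR and REV-ERB motif AAGGTCA in 1, that of Gimap4 (4.72%). These are matches of letters in 300 bases and do not show binding. No motif was found in both of the raised and neither of the lowered promoters shown.

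Gimap3 and Gimap5 are the closest relatives of the family, and the stretch below shows how much of their coding sequence is the same. Capitals mark the 9 positions that differ within 120 bases, which code for part of the GTP-binding domain, and positions count from the first base of the start codon in the GENCODE M21 transcripts.
Gimap3 coding sequence, bases 54 to 173: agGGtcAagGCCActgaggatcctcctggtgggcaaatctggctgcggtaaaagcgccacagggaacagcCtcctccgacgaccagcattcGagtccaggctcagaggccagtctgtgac
Gimap5 coding sequence, bases 66 to 185: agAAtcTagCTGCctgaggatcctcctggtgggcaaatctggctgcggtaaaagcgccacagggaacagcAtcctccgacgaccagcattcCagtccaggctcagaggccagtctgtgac
Over 895 aligned bases their coding sequences were 90.4% identical, while Gimap1 and Gimap9, the pair least alike, were 56.1% identical. Of the 50-base stretches of Gimap3 transcripts, 7.52% also occur in another member, and of those of Gimap5, 4.53%. The other 6 members share none with each other. Reads from such stretches could be assigned to either gene or dropped, and how they were counted was not given in the sources used here.

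The first comparison sets diet against control over all 4 times, the contrast the series was built on. Under diet the family did not move as 1 block. Gimap7 and Gimap3 were 3.08-fold and 2.60-fold higher and Gimap9 was 1.24-fold higher. Gimap6 and Gimap4, the most abundant members, were 1.59-fold and 1.53-fold lower and Gimap8 was 1.22-fold lower. Gimap1 and Gimap5 did not pass the test. So 6 of 8 members were called at an adjusted p under 0.05 (quasi-likelihood test of edgeR, Benjamini-Hochberg over all 22409 genes), 3 higher and 3 lower, where 52.4% of all tested genes were called (27.5% higher and 24.9% lower). The median log2 change of the 8 members was -0.12, and that of all tested genes 0.08. In such bulk libraries, fewer cells of a type and less RNA per cell cannot be told apart.

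**Figure D1:**
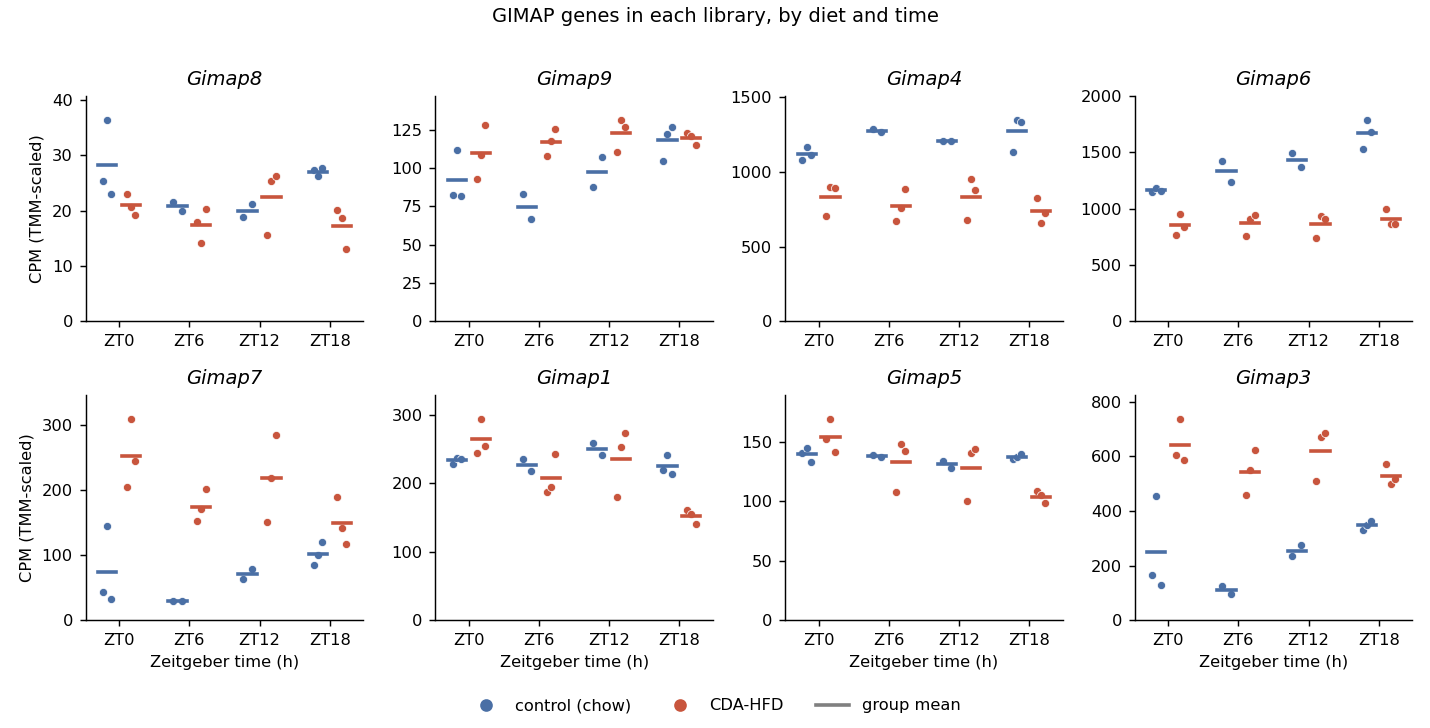
CPM (TMM-scaled, y axes from 0) of the 8 GIMAP genes in each library by zeitgeber time (x axes), with control libraries in blue, CDA-HFD libraries in red and bars at group means. Gimap3 libraries under diet (459.9 to 736.8 CPM) all lie above the control libraries (97.9 to 454.5 CPM), those of Gimap4 and Gimap6 all lie below, and the other 5 genes overlap.

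Among the members whose proteins carry a membrane anchor, Gimap3 changed most. Gimap3, a close relative of Gimap5 that in mice acts at mitochondrial and endoplasmic reticulum membranes, had a lowest value of 97.9, a median of 254.6 and a highest of 454.5 CPM in the 10 control libraries. In the 12 diet libraries these values were 459.9, 579.9 and 736.8 CPM. The 2 sets did not overlap, although control ZT0 replicate 2 came within a few CPM of the lowest diet library. Means were 253.1 ± 120.7 CPM in control and 584.1 ± 83.7 CPM under diet (SD, n = 10 and 12), and the log2 change was 1.38 ± 0.16 (SE, adjusted p = 2.56e-07). Gimap5, needed for T cell survival, had a lowest, median and highest value of 128.2, 137.4 and 145.1 CPM in control and of 98.3, 140.9 and 169.2 CPM under diet. All control libraries of Gimap5 lay inside the range of the diet libraries, and the change was -0.09 ± 0.07 (adjusted p = 0.313). Gimap1, required for mature T and B cells to persist, ranged from 214.1 to 259 CPM around a median of 235.2 in control and from 141.2 to 294 CPM around 218.7 under diet. Its change was -0.15 ± 0.07 (adjusted p = 0.0822), and its diet libraries lay both above and below all control libraries. It was called lower without diet ZT6 replicate 3 (-0.18, adjusted p = 0.0333), without diet ZT12 replicate 3 (-0.18, 0.0340) and without the ZT0 libraries (-0.27, 0.0137). The SD of Gimap1 was 13.4 CPM in control and 51.2 CPM under diet, and that of Gimap5 was 4.55 and 24.2 CPM.

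The contrast between Gimap3 and Gimap5 was also measured as a ratio within each library, which does not depend on how libraries are scaled. The ratio uses the same counts as the values above, so it is not separate evidence of the Gimap3 difference. The ratio of Gimap3 to Gimap5 counts was 0.71 to 3.13 in the control libraries (1.84 ± 0.85, SD, n = 10) and 3.70 to 5.29 in the diet libraries (4.56 ± 0.50, n = 12). Every diet library exceeded every control library, and how many other gene pairs separate in this way was not counted. The mean log2 difference over the 4 times was 1.53, a 2.88-fold change (exact two-sided permutation test of diet labels within each time, p = 2.5e-05, the smallest the 40000 arrangements can give). By time, from ZT0 to ZT18, it was 1.43, 2.35, 1.33 and 1.01. Without control ZT0 replicate 2 the mean difference was 1.65.

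The members with no membrane anchor went both ways. Gimap4, which promotes the death of T cells, had a lowest, median and highest value of 1083, 1209 and 1350 CPM in control and of 661, 794.5 and 952.4 CPM under diet. The mean fell from 1215 ± 93.1 to 794.7 ± 105.8 CPM (log2 -0.62 ± 0.07, adjusted p = 1.79e-07). Gimap6, which binds an ATG8 protein of the autophagy machinery, had 1147, 1398 and 1790 CPM in control and 743.5, 887.9 and 1000 CPM under diet. The mean fell from 1402 ± 225.2 to 874.4 ± 82.9 CPM (-0.67 ± 0.06, adjusted p = 6.32e-09). Neither gene had a diet library as high as any control library. Gimap7, whose protein can stimulate the GTPase activity of its relatives, went the other way. Its lowest, median and highest values were 29.7, 71.3 and 144.8 CPM in control and 117, 195.7 and 309.9 CPM under diet. The 2 sets overlapped in control ZT0 replicate 2 (144.8 CPM) and control ZT18 replicate 3 (121.3 CPM), which exceeded the lowest diet library. The mean rose from 73.2 ± 40.4 to 199.0 ± 58.5 CPM (1.62 ± 0.20, adjusted p = 8.33e-07).

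The remaining members changed least among those called. Gimap9 had a lowest, median and highest value of 66.9, 96.3 and 127.2 CPM in control and of 93.1, 119.5 and 131.6 CPM under diet, with wide overlap. The mean rose from 97.6 ± 19.9 to 117.4 ± 11.02 CPM (0.31 ± 0.08, adjusted p = 0.00156). Without the ZT6 libraries that call was lost (0.20, adjusted p = 0.0612). Gimap8, which carries several GTP-binding domains in 1 chain, had 18.9, 24.2 and 36.4 CPM in control and 13.03, 19.7 and 26.3 CPM under diet. The mean fell from 24.7 ± 5.12 to 19.5 ± 4.09 CPM (-0.29 ± 0.11, adjusted p = 0.0353). This call is fragile. It was lost without control ZT0 replicate 2 (adjusted p = 0.0702), without either control library at ZT6 or at ZT12, and without diet ZT0 replicate 3, ZT6 replicate 2, ZT12 replicate 1 or ZT18 replicate 3 (adjusted p up to 0.0864). It was also lost without both control libraries that stand apart (-0.23, adjusted p = 0.0850), while none of the other 5 called members lost its call there. Counting only non-overlap, 1 member was higher (Gimap3) and 2 were lower (Gimap4 and Gimap6), where 17.1% of all tested genes did not overlap (7.35% higher and 9.78% lower).

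**Figure D2:**
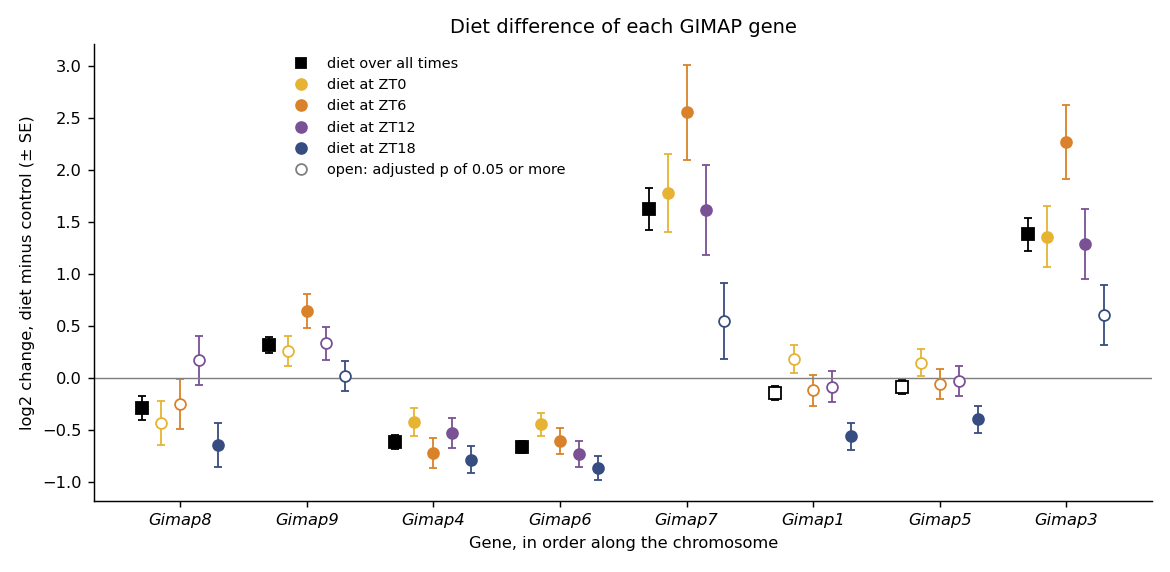
Log2 change of each GIMAP gene, diet minus control (y axis), with standard errors from edgeR, over all times (squares) and at each zeitgeber time (circles); open symbols did not pass an adjusted p of 0.05. Gimap7 and Gimap3 are highest at ZT6 (2.56 and 2.27), and Gimap4 and Gimap6 are below 0 at each time.

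Per kilobase of exon, so that genes can be compared, the levels ran in the control libraries from Gimap4 (661.4 ± 50.7 CPM per kb, SD, n = 10) through Gimap6 (401.2 ± 64.4), Gimap3 (98.2 ± 46.8), Gimap1 (75.8 ± 4.37), Gimap9 (59.4 ± 12.1), Gimap5 (33 ± 1.10) and Gimap7 (31.5 ± 17.4) to Gimap8 (6.69 ± 1.38). The intervals of mean ± 1 SD overlapped between Gimap3, Gimap1 and Gimap9, between Gimap9 and Gimap7, and between Gimap5 and Gimap7. Under diet the order became Gimap4 (432.6 ± 57.6 CPM per kb, n = 12), Gimap6 (250.1 ± 23.7), Gimap3 (226.7 ± 32.5), Gimap7 (85.6 ± 25.2), Gimap9 (71.5 ± 6.71), Gimap1 (70.0 ± 16.6), Gimap5 (31.3 ± 5.83) and Gimap8 (5.28 ± 1.11). There the intervals overlapped between Gimap6 and Gimap3 and among Gimap7, Gimap9 and Gimap1. The summed level of the 8 members was 3436 ± 409.1 CPM in control and 2934 ± 358.3 CPM under diet, with ranges of 2910 to 4116 and 2461 to 3488 CPM that overlapped.

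The mix of GIMAP transcripts thus shifted more than their sum. As a share of the summed CPM per kb, Gimap4 made up 48.7 ± 3.73% in control and 36.9 ± 1.32% under diet, and Gimap6 29.3 ± 2.24% and 21.5 ± 1.95%. Gimap3 went from 7.01 ± 2.94% to 19.3 ± 0.94% and Gimap7 from 2.23 ± 1.10% to 7.18 ± 1.36%. The shares of Gimap4 (44.2 to 55.5% against 34.7 to 38.7%), Gimap3 (3.06 to 12.6% against 18.1 to 21.2%) and Gimap7 (0.956 to 4.45% against 4.86 to 9.60%) did not overlap between the diets. Shares were taken only within the family, so no rate over all tested genes stands beside this separation. Gimap9 had a share of 4.32 ± 0.53% in control and 6.15 ± 0.70% under diet, with ranges that overlapped (3.28 to 4.87% and 4.76 to 7.26%). Gimap1 (5.61 and 5.92%), Gimap5 (2.44 and 2.66%) and Gimap8 (0.491 and 0.449%) had similar mean shares, within 1 SD of each other. The share of Gimap3 spread over a narrower range in the diet libraries than in the control libraries.

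**Figure D3:**
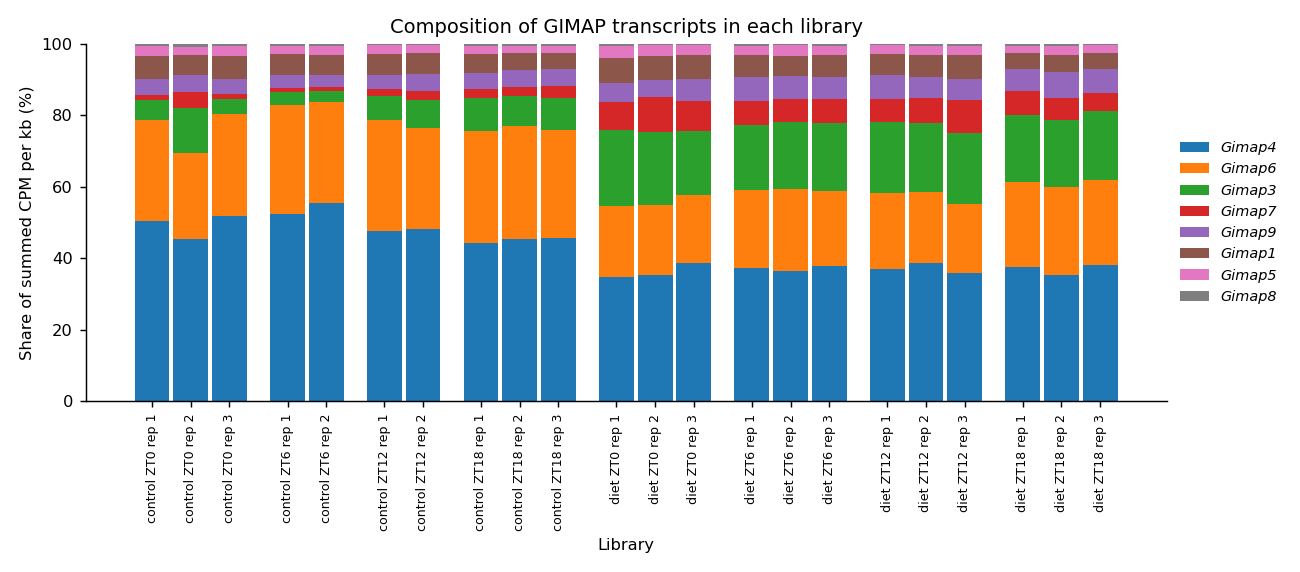
Share of each GIMAP gene in the summed CPM per kb of the 8 members (y axis, percent), 1 bar per library (x axis), grouped by diet and zeitgeber time. In control, Gimap4 and Gimap6 together fill most of each bar and Gimap3 takes 3.06 to 12.6%, while in the diet libraries Gimap3 takes 18.1 to 21.2%.

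The next comparisons ask whether the diet difference was the same at each time. At ZT0, 4 of 8 members were called (2 higher, 2 lower), where 30.0% of all tested genes were called. At ZT6 there were 5 (3 higher, 2 lower, beside 30.1% of all genes) and at ZT12 4 (2 higher, 2 lower, beside 29.6%). At ZT18 there were 5, all lower, where 30.9% of all tested genes were called and 15.5% of all tested genes were called lower. The median log2 change of the members was 0.16, -0.09, 0.07 and -0.48 in that order of times, beside -0.02, 0.08, 0.06 and 0.03 for all tested genes. Gimap4 and Gimap6 were called lower at each time, although with scaling by library size only Gimap4 lost its call at ZT0 (-0.32, adjusted p = 0.092) and ZT12 (-0.32, 0.135). Gimap4 changed by -0.43 ± 0.13 at ZT0, by -0.73 ± 0.15 and -0.53 ± 0.15 at ZT6 and ZT12, and by -0.79 ± 0.13 at ZT18 (adjusted p from 9.16e-05 to 0.0178). Gimap6 changed by -0.45 ± 0.11, -0.61 ± 0.13, -0.73 ± 0.13 and -0.87 ± 0.11 (adjusted p from 4.79e-06 to 0.00429). The ZT0 call of Gimap4 was lost without control ZT0 replicate 3 (adjusted p = 0.0583) and without diet ZT0 replicate 1 (adjusted p = 0.105). Without control ZT12 replicate 1, only Gimap6 was called at ZT12. The changes were then -0.53 for Gimap4 (adjusted p = 0.0549), 1.47 for Gimap7 (0.0757) and 1.18 for Gimap3 (0.0640), close to those with all libraries. Where control ZT6 or ZT12 is left with 1 library, here and in other places, that library is assumed to vary like those of the other groups.

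Gimap7 and Gimap3 differed most at ZT6 and least at ZT18. Gimap7 changed by 1.77 ± 0.38 at ZT0 (adjusted p = 0.000919), then by 2.56 ± 0.46 (0.000163), 1.61 ± 0.43 (0.00695) and, at ZT18, 0.54 ± 0.37 (0.287, not called). Gimap3 changed by 1.36 ± 0.29 (adjusted p = 0.00114), 2.27 ± 0.35 (3.67e-05), 1.29 ± 0.34 (0.00598) and 0.60 ± 0.29 (0.126, not called). At ZT18 the diet libraries of Gimap3 (497 to 573.1 CPM) lay above all 3 control libraries (331.2 to 365.1 CPM). How many of all tested genes separate in this way at ZT18 was not counted. Gimap3 was called there with only the ZT18 groups in the fit (0.60, adjusted p = 0.000649) and with no filter on low counts (0.63, 1.28e-05). With no filter Gimap7 was called there too (0.57, adjusted p = 0.0012). Both changes stayed close to those of the main fit (0.60 and 0.54), while that setting called many more genes elsewhere. In the interaction it called 2085 genes, against 215 in the main fit. Its share of all genes called at ZT18 is not given here. Gimap9 had its largest difference at ZT6 as well (0.64 ± 0.16, adjusted p = 0.00413), a call that was lost when control ZT6 was left with its replicate 1 alone (0.48, adjusted p = 0.108), and its difference at ZT18 was 0.02 ± 0.14 (0.948). Without control ZT0 replicate 2 the ZT0 changes of Gimap7 and Gimap3 were 2.71 and 2.11, Gimap9 was called higher at ZT0 (0.42, adjusted p = 0.0253), and Gimap3 was called higher at ZT18 (0.60, adjusted p = 0.00218).

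At ZT18 Gimap1 and Gimap5 were lower under diet. Gimap1 read 220, 242 and 214.1 CPM in the 3 control libraries and 160.5, 154.8 and 141.2 CPM in the 3 diet libraries, a change of -0.57 ± 0.13 (adjusted p = 0.0023). Gimap5 read 135.6, 137.1 and 139.4 CPM in control and 108.4, 105.1 and 98.3 CPM under diet (-0.40 ± 0.13, adjusted p = 0.0219). For both genes every diet library lay below every control library at that time, a separation whose share over all tested genes was not counted. Gimap8 was also called lower at ZT18 (-0.65 ± 0.21, adjusted p = 0.0255). The calls of Gimap5 and Gimap8 at ZT18 were lost without control ZT18 replicate 3 (adjusted p = 0.0554 and 0.0592) and without diet ZT18 replicate 3 (0.0781 and 0.131). Gimap5 also lost its call without diet ZT18 replicate 2 (0.0504) and Gimap8 without control ZT18 replicate 1 (0.0530). RNA quality genes, a list of 14 stress, immediate early and mitochondrial genes, summed to 31430 to 45180 CPM in the 3 diet libraries at ZT18, 14880 to 25590 CPM in the other 9 diet libraries and 10050 to 19470 CPM in control, and their part in these differences was not tested.

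No member passed the test of the diet by time interaction with edgeR (0 of 8 called, 0.959% of all genes), although 4 had an unadjusted p under 0.05 (Gimap1, Gimap3, Gimap5 and Gimap7, with adjusted p of 0.156, 0.194, 0.342 and 0.211). DESeq2 called 2, Gimap1 (adjusted p = 0.0245) and Gimap3 (0.0411). Without control ZT0 replicate 2, edgeR also called 2, Gimap7 (adjusted p = 0.000974) and Gimap3 (0.000214). Without both control libraries that stand apart it called the same pair (0.00130 and 0.000438). Interaction calls over all genes rose in these settings too, from 215 in the main fit to 1438 with DESeq2. They were 1086 without control ZT0 replicate 2 and 1004 without both libraries.

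The title of the series names circadian analyses, so the 4 times were also compared within each diet. In control, 2 of 8 members were called over time, Gimap3 (adjusted p = 0.0346) and Gimap6 (0.0386), where 5.74% of all tested genes were called. Gimap3 read 167.8, 454.5 and 130.4 CPM at ZT0, 127.4 and 97.9 at ZT6, 234.3 and 274.9 at ZT12, and 331.2, 347.3 and 365.1 at ZT18. Apart from replicate 2 of ZT0, the libraries at ZT18 were the highest and those at ZT6 the lowest, with group means 3.09-fold apart. Gimap7 read 43.9, 144.8 and 33.4 CPM at ZT0, 29.7 and 29.8 at ZT6, 63.6 and 79 at ZT12, and 85.9, 100.2 and 121.3 at ZT18. Its ZT6 mean was the lowest and its ZT18 mean the highest, as for Gimap3, but it was not called (adjusted p = 0.0816). Gimap6 read 1147, 1183 and 1161 CPM at ZT0, 1428 and 1234 at ZT6, 1498 and 1368 at ZT12, and 1532, 1790 and 1682 at ZT18. Its ZT18 libraries were all above all libraries of other times, a separation whose share over all tested genes was not counted. The RNA quality genes, of which 10 of 13 tested were called over time in control, summed to 19270 to 19470 CPM at ZT18 and 10050 to 13610 CPM at the other times, and their part in these differences was not tested.

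Both time calls in control rest on few libraries. Without control ZT0 replicate 2, 4 members were called over time in control: Gimap3 (adjusted p = 4.62e-06), Gimap7 (0.000208), Gimap9 (0.0123) and Gimap6. Calls over all genes rose there too, from 1287 to 1957. The call of Gimap3 was lost without either control library at ZT6 (adjusted p = 0.0941 and 0.220) or any 1 of the 3 at ZT18 (0.0581, 0.0697 and 0.0760). That of Gimap6 was lost in 10 of 22 cases with 1 library left out: control ZT0 replicates 1 and 3, both control libraries at ZT6 and at ZT12, control ZT18 replicates 2 and 3, diet ZT0 replicate 3 and diet ZT6 replicate 2 (adjusted p up to 0.134). Gimap9 averaged 74.9 CPM at ZT6 and 118.2 CPM at ZT18 (adjusted p = 0.0690). Gimap4, Gimap5, Gimap1 and Gimap8 had an adjusted p of 0.736, 0.975, 0.892 and 0.366. Gimap5 held within 128.2 to 145.1 CPM in all 10 control libraries.

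Under diet, 1 of 8 members was called over time, where 1.08% of all tested genes were called. Gimap1 read 243.9, 294 and 254.9 CPM at ZT0, 186.8, 194.9 and 242.6 at ZT6, 180.1, 252.5 and 274 at ZT12, and 160.5, 154.8 and 141.2 at ZT18 (adjusted p = 0.0164). Its ZT18 libraries were below all other diet libraries, a separation whose share over all tested genes was not counted. Group means were 1.74-fold apart between ZT0 and ZT18. The call was lost without diet ZT0 replicate 2 (adjusted p = 0.0530) or any 1 of the 3 diet libraries at ZT18 (0.0509, 0.0681 and 0.0838). Gimap5 was also highest on average at ZT0 (154.3 ± 14.0 CPM) and lowest at ZT18 (103.9 CPM), and was not called (0.114). It was called without diet ZT12 replicate 1 (0.0386) and by DESeq2 (0.00481). Gimap3 and Gimap7 had an adjusted p of 0.971 and 0.695 over the diet times.

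The family is shared by endothelium and lymphocytes, and markers of both moved with diet. Of the 20 endothelial markers, 20 fell (median log2 change -4.02), and their mean sum was 16.1-fold lower under diet. Of the 20 T cell markers 20 rose (median 1.85), of 12 NK cell markers 12 (2.81) and of 12 B cell markers 12 (2.28). Mean sums were 3.32-fold higher for T cells, 4.64-fold for NK cells and 4.28-fold for B cells. Beside these stand the 1.53-fold and 1.59-fold falls of Gimap4 and Gimap6 and the 3.08-fold and 2.60-fold rises of Gimap7 and Gimap3. Over time in control, 9 of 20 T cell, 10 of 12 NK cell and 2 of 20 endothelial markers were called, where 5.74% of all tested genes were called. So were 13 of 14 macrophage and Kupffer cell markers, 5 of 10 naive and memory T cell genes and 1 of 12 B cell markers. The macrophage and Kupffer cell sum in control was 1006 and 3579 CPM at ZT6 and 559.7 to 661.3 CPM at ZT18. In control the T cell sum was 837.1 ± 115.9 CPM at ZT6 and 2626 ± 158.9 CPM at ZT18. At ZT0 it was 1009, 3179 and 780.9 CPM in replicates 1 to 3, so the library with high Gimap3 and Gimap7 also had the highest T cell sum of all control libraries. Its endothelial sum was 19820 CPM, the lowest of all control libraries. Under diet the T cell sum was 7228 ± 762.5 CPM at ZT0 and 4444 ± 513.8 CPM at ZT18. The part of cell composition in the GIMAP differences was not tested.

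**Figure D4:**
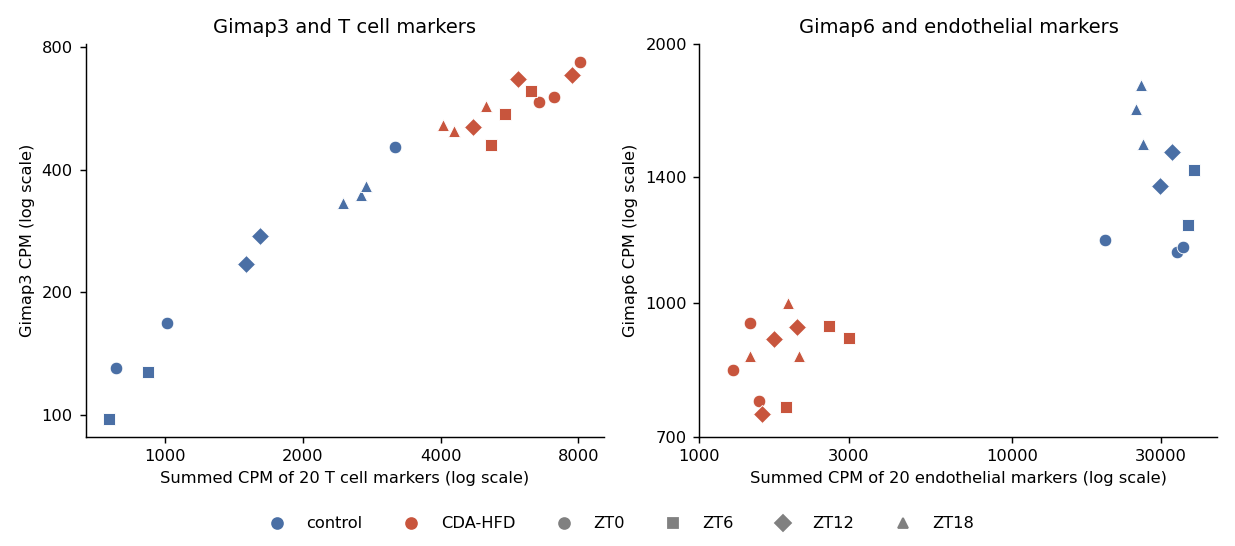
Left, Gimap3 (CPM, y axis) against the summed CPM of 20 T cell markers (x axis); right, Gimap6 against the summed CPM of 20 endothelial markers, both on log axes, 1 point per library, with control in blue, CDA-HFD in red and shapes for zeitgeber times. In control, the group means of Gimap3 and of the T cell sum are both lowest at ZT6, though the T cell sum of ZT0 replicate 3 (780.9 CPM) lies below that of ZT6 replicate 1 (919 CPM). Mean Gimap6 in control is highest at ZT18 (1668 CPM), where the mean endothelial sum is lowest (25700 CPM). Gimap6 differs between diets by 1.59-fold beside a 16.1-fold difference of the endothelial sum.

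Other lists moved in the same libraries. Of 14 markers of macrophages and Kupffer cells, 11 rose and 1 fell (median 1.45), and rises were counted for 10 of 12 hepatocyte (1.14), 8 of 8 cholangiocyte (2.25) and 8 of 8 neutrophil markers (4.05). Of 16 stellate cell markers, 4 rose and 5 fell (0.34). Among 10 genes of naive and memory T cells 7 rose and 1 fell (0.67). Of the 13 tested RNA quality genes, 9 rose (0.73). Over all tested genes the median was 0.08.

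Genes of proteins that GIMAP proteins are known to act with or near (the BCL2 family of cell death, the ATG8 proteins of autophagy, and GSK3 with its target beta-catenin) were mixed. Of 15 tested, 5 rose and 8 fell (median log2 change -0.26). Gabarapl1, an ATG8 protein of autophagosomes, fell from 152.4 ± 26.8 to 58.3 ± 5.90 CPM (log2 -1.40), and Gabarapl2, the ATG8 protein that Gimap6 binds, by 0.19 on the log2 scale (adjusted p = 0.0168). Ctnnb1, which encodes beta-catenin, fell from 163.8 ± 22.1 to 67.7 ± 10.7 CPM (-1.30). The kinase gene Gsk3b changed by -0.36 (adjusted p = 0.000183). Among survival factors, Bcl2 rose from 114.2 ± 50.8 to 208.1 ± 34.9 CPM (1.03) and Mcl1 from 56.8 ± 8.67 to 101.0 ± 14.8 CPM (0.85), while Bcl2l1 fell by 0.46 and the death promoter Bad by 0.87 on the log2 scale. Bcl2 was also called over time in control (adjusted p = 0.010).

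A second family of immune GTPases, the interferon-inducible guanylate-binding, IRG and Mx proteins, was mixed as well. Of 16 tested, 4 rose and 8 fell (median -0.21). Iigp1, an IRG protein that acts against vacuolar pathogens, fell from 108.9 ± 14.0 to 35.4 ± 10.2 CPM (-1.67), and Mx1, an antiviral GTPase, rose from 8.36 ± 4.002 to 29.7 ± 5.64 CPM (1.91).

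Along the chromosome, raised and lowered GIMAP genes were interleaved. From Gimap8 to Gimap3 the log2 changes over all times were -0.29, 0.31, -0.62, -0.67, 1.62, -0.15, -0.09 and 1.38. The annotated neighbours were not called: Zfp775 and AI854703 before the cluster (-0.03 and -0.24, adjusted p = 0.917 and 0.576) and Tmem176b and Tmem176a after it (0.18 and 0.13, adjusted p = 0.0545 and 0.262). Inside the cluster lie 5 other annotated genes. The antisense transcript Gimap1os rose from 13.6 to 29.6 CPM (1.31 ± 0.13, adjusted p = 3.8e-08), and was called over time in control (0.00778). Its exons cover 36% of the exon bases of Gimap1 on the other strand, and with no stated strand setting reads from the 2 genes cannot be told apart. Gm28053, a readthrough model that shares 3.48% of the exon bases of Gimap7, 6.44% of Gimap1 and 3.69% of Gimap5, rose from 3.59 to 5.90 CPM (0.97 ± 0.25, adjusted p = 0.00263). Between Gimap5 and Gimap3, the noncoding transcripts 4833403J16Rik and Gm44226 fell by 1.16 and 1.35 on the log2 scale (adjusted p = 0.000103 and 0.000168) at levels under 4 CPM. The pseudogene Gm44262 did not pass the filter.

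**Figure D5:**
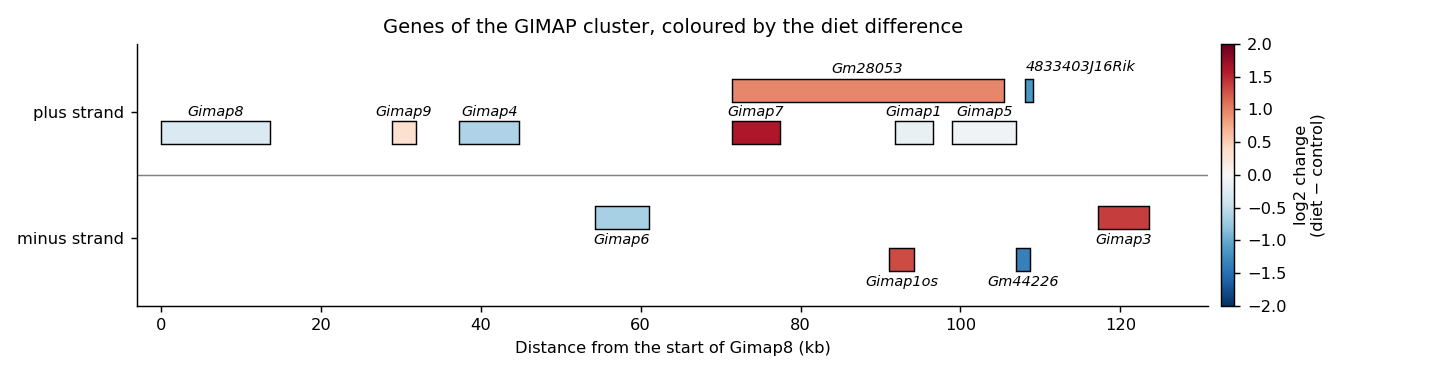
Map of the GIMAP cluster, with distance from the start of Gimap8 in kb (x axis), plus-strand genes above the line and minus-strand genes below it, to scale, coloured by the log2 change under diet over all times. Raised (red: Gimap7, Gimap3, Gimap9, Gimap1os, Gm28053) and lowered (blue: Gimap4, Gimap6, Gimap8, 4833403J16Rik, Gm44226) genes are interleaved along 124 kb.

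Genes with the pattern most like each member were sought by the correlation of log2 CPM deviations from the group means, which all come from the same libraries and share their scaling. Over the 10 control libraries, Gimap3 was most like Ms4a4b, a T cell membrane protein, Il2rb, a chain of the IL-2 receptor, and Rasgrp1, a Ras activator of T cells (Pearson r of 0.997, 0.996 and 0.995). Gimap7 was most like Arhgap9, Ptpn7 and Fgl2, and Gimap8 most like Id2, Il2rb and Cd3e. Of the 20 T cell markers, 13 were among the 100 genes most like Gimap3 of 10516 eligible, 10 among those most like Gimap8, 9 for Gimap7, 1 for Gimap5 and 0 for each of Gimap1, Gimap4, Gimap6 and Gimap9. Of 10 eligible NK cell markers, 3 were among the 100 for each of Gimap3, Gimap7 and Gimap8, and 1 for Gimap5. Of 16 interferon-inducible GTPases, 5 were among the 100 for Gimap9 and 1 for each of Gimap3, Gimap7 and Gimap8. No endothelial marker was among the 100 for any member. These values rest on the 2 control libraries that stand apart. Without both of them, the T cell markers among the 100 numbered 3 for Gimap3, 2 for Gimap8 and 1 for Gimap7. Gimap3 then had as many stellate cell markers (3 of 7 eligible) and 1 cholangiocyte marker. NK cell markers numbered 1 for Gimap3, 1 for Gimap9 and 0 for Gimap5, Gimap7 and Gimap8. Interferon-inducible GTPases numbered 2 for Gimap9 and 2 for Gimap8. Gimap4 and Gimap1 had 1 endothelial marker each, and only 1 of the 24 named genes stayed the same. Neither library was left out alone here. Over the 12 diet libraries, T cell markers among the 100 most like numbered 7 for Gimap7, 5 for Gimap3, 5 for Gimap1, 4 for Gimap5, 4 for Gimap6, 2 for Gimap4, 1 for Gimap8 and 0 for Gimap9, which had 5 B cell markers. Gimap3 was there most like Itgb2, the common integrin chain of leukocytes, Spata13 and Zkscan14.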

How the data were processed

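The deposited table gives whole-number read counts per gene, and a second deposited table gives a normalised signal that equals these counts divided by 1 size factor per library. The submitters' processing notes name STAR 2.7.9a, HTSeq, DESeq2 and the GRCm38 build. How cells were isolated, which annotation and strand setting were used, and any batch are not stated in these sources. Groups come from the sample titles. Counts were tested with edgeR 4.0.16 in R 4.3.3 (TMM, filterByExpr, glmQLFit and glmQLFTest, 1 mean per each of 8 groups, Benjamini-Hochberg threshold 0.05). Contrasts were diet over all times, diet at each time, times within each diet and the interaction. The ratio of Gimap3 to Gimap5 (pseudocount 0.5) was tested by exact permutation. CPM values are means ± SD and changes are log2 ± SE. Coordinates and exon lengths are from GENCODE M21. Likeness used log2 CPM with a prior count of 2, over genes with a mean of at least 2. The rule names all 8 members, other rows whose symbol starts with Gimap, the 3 genes most like each member, up to 6 partner genes and, of the other lists, genes with the smallest p; Gabarapl2 and Gsk3b were named after their values were seen. A list of 18 flanking genes was replaced by the annotated neighbours, since most of it does not adjoin the cluster (3 rose, 6 fell, median 0.05). Members and all 14 lists were chosen with earlier results of these data known. Each test was tested on simulated data, for edgeR with few genes changed, as many raised as lowered. With 52.4% of all tested genes called by diet, these data differ from that setting, so it does not check the scaling used here. Replicates differed far beyond counting error (lowest chi-square per degree of freedom 17.5 over 20 pairs). Alternatives were RLE or library size scaling, another filter (none, or mean CPM 5 and above), a replicate block, DESeq2 1.42.0, additive terms, only the groups compared, and leaving out libraries or times.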

Additional observations from a re-analysis of the deposited data

Results flagged for a closer look

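Gimap8 in control ZT0 replicate 2 stood far from the other control libraries, at 36.4 CPM, with a gap to the next library of 0.502 of the whole range of the 10 control libraries, above the 95% limit of Dixon's test. About 1 in 20 such groups is picked out by chance, and 8 members were looked at. The same library had the highest control values of Gimap3 (454.5 CPM) and Gimap7 (144.8 CPM), though with smaller gaps, and the highest T cell marker sum among the control libraries (3179 CPM).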

How the results depend on the processing

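With 1 library left out at a time, 5 to 7 members were called over all times, 3 to 5 at ZT0, 4 to 5 at ZT6, 1 to 4 at ZT12, 3 to 6 at ZT18, 0 to 4 over time in control, 0 to 2 over time under diet and 0 to 2 in the interaction. The log2 ratio of Gimap3 to Gimap5 stayed between 1.45 and 1.65 there and was 1.53, 1.53 and 1.65 with a pseudocount of 5, with the deposited signal and without both control libraries that stand apart. Changes of sign concerned values that were not called. Leaving out 1 library, Gimap5 ranged from -0.1435 to 0.0725 at ZT6 and from -0.1242 to 0.1172 at ZT12, Gimap1 from -0.2083 to 0.0747 at ZT12 and Gimap9 from -0.0640 to 0.0731 at ZT18. Scaling by library size only, which shifts the median of all genes by 0.17, gave Gimap1 0.0284 and Gimap5 0.0895 over all times, Gimap8 0.0166, Gimap1 0.15 and Gimap5 0.21 at ZT6, and Gimap1 0.13 and Gimap5 0.18 at ZT12; it called 3 members at ZT18. Gimap5 was 0.0511 at ZT12 with a mean CPM of at least 5 and 0.0209 over all times without the ZT18 libraries. Gimap9 was -0.0642 at ZT18 without both control libraries that stand apart. Over time in control, 4 members were called with no filter, 4 without both libraries and 1 with the replicate block. All genes called there numbered 2866, 1719 and 1167, beside 1287 in the main fit. Over time under diet, 2 were called with no filter, 2 with a mean CPM of at least 5 and 2 with DESeq2. All genes called there numbered 1500, 425 and 1095, beside 241 in the main fit. In the interaction, 3 were called with no filter, 2 with DESeq2 and 2 without both libraries. All genes called there numbered 2085, 1438 and 1004, beside 215 in the main fit. Gimap8 lost its diet call with RLE scaling (adjusted p = 0.0530), library size only (0.454), no filter (0.0879) and a mean CPM of at least 5 (0.0861). The causes were not tested. Replicate numbers did not pair the libraries (2 of 71 same-number pairs correlated over 0.1, and 4 of 22 libraries correlated best with their own number), and with the replicate block Gimap8 had -0.28 (0.0601) and Gimap6 over time in control 0.0549. Over all genes, calls over time in control ranged from 790 to 3084, under diet from 96 to 1500 and in the interaction from 76 to 2085 across settings. For the diet contrasts, the share of all tested genes called in these settings is not given here. With 2 or 3 libraries per group, small differences are not resolved.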
